A study of Mus musculus with 12 samples.

Results

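Solute carriers are the membrane proteins that move sugars, amino acids, monocarboxylates, nucleotides, vitamins, metals and inorganic ions into and out of the cell and its organelles. The genes described here are the symbols of a mouse oocyte count table that carry the solute carrier name (Slc, a family number, a letter and a member number), without the mitochondrial Slc25 family and without Slc7a1 and Slc7a11. Of 11385 genes in the table, 192 symbols had this form, 32 of them were Slc25 genes, and 158 remained. They were sorted by family into sugars (16), amino acids and peptides (29), monocarboxylates (6), inorganic ions (37), zinc and other metals (20), nucleotides and nucleotide sugars (24) and other substrates (26). The name covers 4 genes that encode no carrier: the scaffolds Slc9a3r1 and Slc9a3r2, the kanadaptin gene Slc4a1ap, and Slc7a6os. They stay in all counts below, also where these are given as counts of carriers.

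Total RNA was sequenced from fully denuded oocytes at the germinal-vesicle stage, arrested in meiotic prophase, taken from unprimed C57BL/6J mice of 21 to 23 days. The groups were oocytes without both mitofusins (Mfn1&2-/-), without mitofusin 2 (Mfn2-/-), without mitofusin 1 (Mfn1-/-) and wild type (WT), with 3 pools of 50 oocytes in each. Mitofusins are membrane proteins of mitochondria that tether and fuse their outer membranes. The sources used here give neither how the alleles were deleted nor in which cells. They do not say whether pools came from different animals, and p-values therefore cover the variation among pools alone.

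An oocyte at this stage burns pyruvate in preference to glucose and receives part of its amino acids and sugars through gap junctions from the cumulus cells around it. Glycine carried by the transporter Slc6a9 helps mouse oocytes and embryos to hold their volume. Zinc taken up through Slc39a6 and Slc39a10 accumulates during meiotic maturation, while exporters of the Slc30 family move zinc out of the cytosol. Solute carriers of the Slc35 family sit in the ER and Golgi and supply nucleotide sugars for the glycans of secreted and surface proteins.

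Libraries held 11575357 to 16024893 counts, so that a floor of 3 counts equals 0.188 to 0.253 CPM, the counts scaled to a common library size with TMM factors. The 158 symbols together took 0.722 to 0.822% of the counts of a library. Mfn1 stood at 14.8 to 26.4 CPM in the 6 libraries of the groups without it and at 217 to 297 CPM in the other 6. Mfn2 stood at 9.19 to 13.5 CPM in the 6 libraries without it and at 64.3 to 87.2 CPM in the other 6. All 12 oocyte markers were present, with a summed level of 12414 to 14555 CPM in Mfn1&2-/-, 14683 to 16552 CPM in Mfn2-/-, 12392 to 14502 CPM in Mfn1-/- and 11441 to 14146 CPM in WT pools, so that Mfn2-/- pools lay above the others. Of 14 granulosa and cumulus markers 10 were in the table. Their summed level was 148.2 to 155.3 CPM in Mfn1&2-/-, 152.5 to 177.0 CPM in Mfn2-/- and 160.3 to 180.8 CPM in Mfn1-/- pools, all below the WT pools at 187.0 to 522.5 CPM, of which WT replicate 3 was the highest and the other 2 did not pass 219.2 CPM. None of the 5 theca markers was in the table, and 3 of 9 markers of endothelium, blood and immune cells were, with sums of 98.8 to 151.7 CPM. WT replicate 3 was the highest library for 15 of the 158 symbols, against 7 to 21 for each other library. In bulk RNA, fewer cells of a type and less RNA per cell cannot be told apart.

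Promoter sequences are shown for 3 carriers on which the results below turn: Slc30a1, the plasma membrane zinc exporter and a textbook target of the metal-responsive factor MTF1, and the magnesium carriers Slc41a1 and Slc41a2, which moved together. The sequences are the RefSeq promoter windows on GRCm38.p6, trimmed to the bases ahead of the first exon of a protein-coding transcript in GENCODE vM21. Slc30a1 is chr1:191906531-191906766 on the plus strand, Slc41a1 is chr1:131827762-131827976 on the plus strand, and Slc41a2 is chr10:83337883-83338067 on the minus strand. A Slc41a1 transcript that is not annotated as protein-coding starts farther upstream. Capitals mark a core of the metal response element, TGCACNC or TGCGCNC, searched on both strands.
Slc30a1: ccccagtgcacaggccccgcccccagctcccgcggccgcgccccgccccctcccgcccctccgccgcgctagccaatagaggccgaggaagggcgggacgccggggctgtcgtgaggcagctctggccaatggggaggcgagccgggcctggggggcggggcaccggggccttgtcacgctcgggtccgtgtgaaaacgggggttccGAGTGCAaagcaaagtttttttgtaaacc
Slc41a1: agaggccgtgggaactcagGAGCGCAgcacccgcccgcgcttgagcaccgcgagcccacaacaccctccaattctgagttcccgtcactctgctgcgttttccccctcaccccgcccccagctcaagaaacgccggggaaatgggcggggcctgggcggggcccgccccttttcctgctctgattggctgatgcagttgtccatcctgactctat
Slc41a2: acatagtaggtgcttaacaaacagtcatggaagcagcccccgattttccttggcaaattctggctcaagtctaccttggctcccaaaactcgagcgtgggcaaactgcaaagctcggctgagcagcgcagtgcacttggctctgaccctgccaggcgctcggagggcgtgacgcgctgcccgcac
The Slc30a1 window of 236 bases held 1 core, read on the opposite strand, and 5 GC boxes (GGGCGG, both strands). The Slc41a1 window of 215 bases held the same numbers, 1 core and 5 GC boxes, and the Slc41a2 window of 185 bases held 0 of each. No core overlapped a GC box. Among 32851 RefSeq promoters, windows of these lengths held at least 1 core in 20.1%, 18.3% and 15.5%, and at least 1 GC box in 30.8%, 27.7% and 21.8%. A match of letters is a description of the window and not a binding site.

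Levels between genes are compared as CPM per kb of exons. The median solute carrier stood at 2.82 CPM per kb in WT oocytes, against 5.55 CPM per kb over the 11292 genes with a known length. In WT, 90 of the 158 symbols averaged 10 CPM or more, 5 averaged below 1 CPM, and 14 had no count in at least 1 of the 12 libraries. Slc45a3, a proton-coupled sugar carrier known from prostate, stood highest at 305.5 ± 25.3 CPM per kb (SD, n = 3 pools). The zinc importers Slc39a6 at 110.2 ± 3.40 and Slc39a10 at 82.3 ± 6.28 CPM per kb came next, then the vitamin C carrier Slc23a2 at 74.1 ± 3.72 and the glycine transporter Slc6a9 at 47.4 ± 1.34. Slc4a1ap (39.1 ± 4.24), the vesicular zinc carrier Slc30a3 (32.9 ± 5.29), the amino acid exchanger heavy chain Slc3a2 (27.7 ± 4.71), the choline-like carrier Slc44a2 (26.8 ± 1.30) and Slc7a6os (26.7 ± 1.08) completed the 10 highest. Ranges over the pools overlapped between Slc39a10 and Slc23a2, between Slc4a1ap and Slc30a3, and among the genes from Slc30a3 down, so their order is not settled by these pools. For Slc45a3, 13.5% of exon bases are shared with the transcript Gm29103 on the same strand, and for Slc6a9 27.8% are shared with Ccdc24 on the opposite strand. The sources used here do not state the strand setting of the counting, so both levels are uncertain. The same holds for Slc4a2 (13.7% of exon bases shared with Fastk), Slc27a2 (11.2% with Gm26697), Slc22a3 (9.31% with Plg), Slc7a2 (6.95% with Gm26584) and Slc2a1 (2.99% with Gm12868), each overlapped by a gene on the opposite strand.

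**Figure D1:**
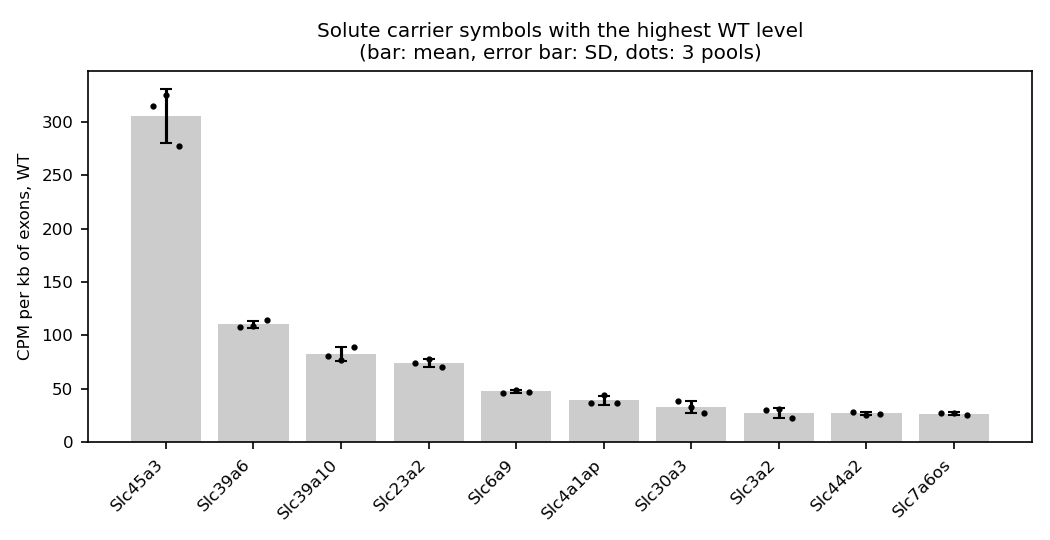
CPM per kb of exons in WT oocytes for the 10 solute carrier symbols with the highest level; bars are means of 3 pools, error bars SD, dots single pools. Slc45a3 at 305.5 stands above the zinc importers Slc39a6 at 110.2 and Slc39a10 at 82.3.

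None of these 10 highly expressed genes passed an adjusted p of 0.05 against WT in Mfn1&2-/- or Mfn1-/- oocytes by edgeR's quasi-likelihood test. In Mfn2-/- oocytes Slc4a1ap did. Slc45a3 stood at 1090.5, 1154 and 1104 CPM in Mfn1&2-/- pools, 1149, 1057 and 1127 CPM in Mfn2-/- pools, 1098, 987 and 1069 CPM in Mfn1-/- pools and 1121, 1158 and 987 CPM in WT pools. All 4 groups overlapped. Slc39a6 stood at 428, 448 and 439 CPM in Mfn1&2-/- pools, 509, 469 and 477 CPM in Mfn2-/- pools, 434, 453 and 442 CPM in Mfn1-/- pools and 438, 444 and 464 CPM in WT pools. The Mfn2-/- pools lay above the WT pools, with a log2 fold change of 0.11 ± 0.07 (edgeR adjusted p = 0.366).

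Loss of mitofusin 2 alone moved solute carriers in both directions. Of the 158 symbols 20 were called in Mfn2-/- against WT (12.7%), 12 higher and 8 lower, by edgeR's quasi-likelihood test at a Benjamini-Hochberg adjusted p below 0.05. Over all genes 11.4% were called (4.52% higher, 6.87% lower), so the carriers' share was near that of the table. The magnesium carriers Slc41a1 and Slc41a2, the Golgi carriers Slc35a3 and Slc35b4 and the zinc exporter Slc30a1 were among those that rose. The chloride-bicarbonate exchanger Slc4a3, the calcium exchanger Slc8a1 and the vesicular zinc carrier Slc30a2 were among those that fell. The median log2 fold change was 0.11 over the carriers and 0.01 over all genes, and the Mfn2-/- and WT pools did not overlap for 60 carriers (39 higher, 21 lower), or 38.0%, against 32% of all genes. In the same comparison 3 of 12 oocyte markers were called higher and 0 lower, and 0 of 10 granulosa markers higher and 4 lower, and the part of either in the carrier calls was not tested. Without WT replicate 3, 10 carriers were called, without Mfn2-/- replicate 2, 11, and without Mfn2-/- replicate 3, 12. Over all genes 6.41%, 6.22% and 6.67% were then called, in place of 11.4%. The 7 calls of Slc22a23, Slc30a1, Slc35a3, Slc35b4, Slc41a1, Slc4a3 and Slc9a3r2 held without each of the 12 libraries in turn.

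Loss of both mitofusins gave fewer calls against WT. In Mfn1&2-/- oocytes 9 symbols were called (5.70%), 4 higher and 5 lower, against 4.21% of all genes (2.1% higher, 2.11% lower). The magnesium carriers rose again, and the 5 that fell were the metal carriers Slc39a8 and Slc30a2, the arginine and lysine carrier Slc7a2 and the ion exchangers Slc4a3 and Slc8a1. Medians were 0.01 over the carriers and 0.00 over all genes on the log2 scale, and pools did not overlap for 29 carriers, or 18.4%, against 22.1% of all genes. Among granulosa markers 0 of 10 were called higher and 2 lower, and among oocyte markers 0 of 12 were called; the part of this in the carrier calls was not tested. The calls of Slc30a2, Slc39a8, Slc41a1 and Slc7a2 held without each library. Of the 9 calls 5 stayed without Mfn1&2-/- replicate 3, and 14 carriers were called without Mfn1&2-/- replicate 1. Over all genes 2.61% and 4.83% were called without these libraries, in the same order.

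Loss of mitofusin 1 alone gave no carrier call by edgeR, against 0.228% of all genes called (0.0703% higher, 0.158% lower). At an unadjusted p below 0.05 there were 26 carriers, or 16.5%, against 12.8% of all genes, and DESeq2 called 3 carriers and 1.97% of all genes. The 5 with the smallest p were the fatty acid carrier Slc27a6 (log2 fold change -5.40 ± 1.12, edgeR adjusted p = 0.0635), the zinc exporter Slc30a1 (0.51 ± 0.12, adjusted p = 0.0992), the acyl-CoA synthetase Slc27a2 (-4.11 ± 1.12, adjusted p = 0.133), the neutral amino acid transporter Slc6a15 (-0.71 ± 0.20, adjusted p = 0.137) and the peptide transporter Slc15a2 (-0.86 ± 0.25, adjusted p = 0.155). Values after ± beside log2 fold changes are standard errors. The 3 DESeq2 calls were Slc27a6, Slc30a1 and Slc6a15. Medians were -0.00 over the carriers and -0.01 over all genes, and pools did not overlap for 33 carriers, or 20.9%, against 18.1% of all genes.

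**Figure D2:**
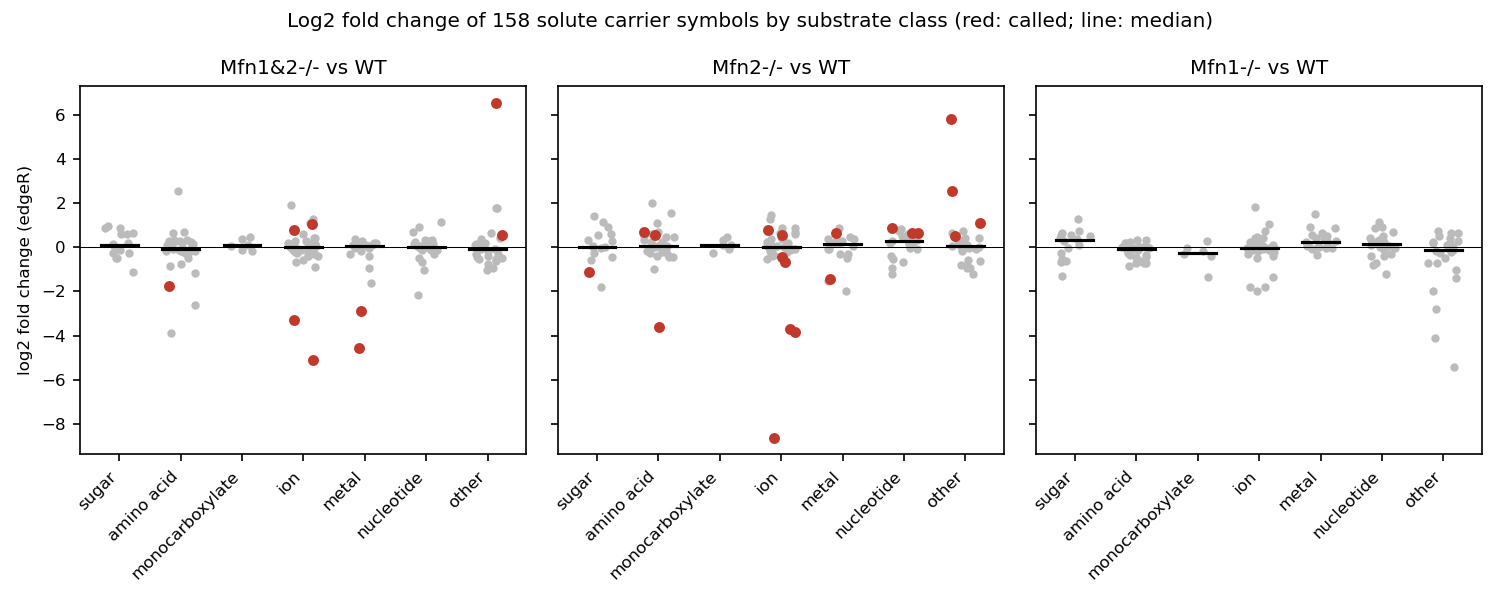
Log2 fold changes by edgeR (vertical axis) of the 158 symbols by substrate class, in panels for Mfn1&2-/-, Mfn2-/- and Mfn1-/- oocytes, each over WT; red dots passed an adjusted p of 0.05 and black lines are class medians. There are 9, 20 and 0 red dots, spread over several classes.

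Mfn2 loss could be tested a second time, in oocytes that already lacked mitofusin 1. In Mfn1&2-/- against Mfn1-/- oocytes 15 carriers were called (9.49%), 10 higher and 5 lower, against 5.36% of all genes (2.76% higher, 2.6% lower). The 7 calls of Slc12a2, Slc27a2, Slc30a2, Slc39a8, Slc41a1, Slc6a15 and Slc7a2 held without each library, and 8 carriers were called without Mfn1-/- replicate 2. Over all genes 3.09% were called without that library. Scaling by library size alone gave 9 higher and 7 lower, with 5.81% of all genes called. Mfn1 loss tested where mitofusin 2 was absent, Mfn1&2-/- against Mfn2-/-, gave 16 calls (10.1%), 5 higher and 11 lower, against 10.2% of all genes (6.14% higher, 4.08% lower). Of these, the calls of Slc35a3, Slc4a1ap, Slc6a7, Slc7a2 and Slc7a6os held without each library. Carriers called there numbered 10, 8 and 8 without Mfn1&2-/- replicate 1, 2 or 3, and 9 and 7 without Mfn2-/- replicate 2 or 3. Over all genes 8.15%, 5.92%, 6.97%, 5.01% and 5.54% were called in these fits, in the same order. With library size alone 3 were higher and 12 lower, with 10.5% of all genes called.

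Of 16 sugar symbols, 0 rose and 1 fell in Mfn2-/- against WT (6.25%, against 11.4% of all genes). In Mfn1&2-/- against WT 0 were called, against 4.21% of all genes. Slc2a1, the facilitative glucose transporter of most cells, stood at 31.1, 25.7 and 36.7 CPM in Mfn1&2-/- pools, 29.7, 33.1 and 30.5 CPM in Mfn2-/- pools, 49.5, 43.2 and 43.1 CPM in Mfn1-/- pools and 33.0, 34.8 and 44.2 CPM in WT pools. The Mfn1&2-/- pools lay below the Mfn1-/- pools, by -0.54 ± 0.16 on the log2 scale (edgeR adjusted p = 0.0651), and the single losses gave adjusted p of 0.333 (Mfn2-/-) and 0.505 (Mfn1-/-) against WT. Slc45a4, a relative of Slc45a3, stood at 6.13, 13.3 and 9.57 CPM in Mfn2-/- pools, against 15.01, 23.7 and 24.4 CPM in WT pools. It fell 2.18-fold (edgeR adjusted p = 0.0249), the single sugar call of the 16 against WT, and the call was lost without Mfn2-/- replicate 1 or 3 or WT replicate 2 or 3. In Mfn1&2-/- oocytes Slc45a4 was 1.99-fold higher than in Mfn2-/- oocytes (edgeR adjusted p = 0.0462), a call lost without 7 of the 12 libraries, with library size alone and with only the groups compared.

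The inositol carriers moved in opposite directions in Mfn1&2-/- against Mfn1-/- oocytes. The proton-coupled Slc2a13 stood at 12.04, 8.22 and 10.7 CPM in Mfn1&2-/- pools and 4.06, 4.89 and 3.66 CPM in Mfn1-/- pools (log2 fold change 1.29 ± 0.32, edgeR adjusted p = 0.027). The sodium-coupled Slc5a3 stood at 14.98, 17.6 and 17.6 CPM in Mfn1&2-/- pools and 34.8, 29.6 and 21.9 CPM in Mfn1-/- pools (-0.78 ± 0.22, edgeR adjusted p = 0.0451). For both, the pools of these groups did not overlap, but the Slc2a13 call was lost without any one Mfn1-/- library and without Mfn1&2-/- replicate 1 or 3. The Slc5a3 call was lost without Mfn1-/- replicate 1 or 2, any one Mfn1&2-/- library, or WT replicate 1 or 2, and with only the groups compared. Slc2a9, a urate carrier, stood at 4.97, 1.18 and 2.73 CPM in Mfn1&2-/- pools and 6.33, 11.4 and 11.3 CPM in Mfn2-/- pools (-1.72 ± 0.45, edgeR adjusted p = 0.0257), and its WT pools lay between at 4.64 to 7.51 CPM. That call was lost without Mfn1&2-/- replicate 2 or 3 or Mfn2-/- replicate 2 or 3.

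No monocarboxylate carrier of the 6 was called in any comparison by edgeR. At an unadjusted p below 0.05 there were 0 in Mfn1&2-/-, 1 in Mfn2-/- and 1 in Mfn1-/- against WT, and 1 in each test of Mfn1&2-/- against a single loss. Shares of all genes at that p were 18.6%, 26.0% and 12.8% against WT, and 20.7% and 25.7% against Mfn1-/- and Mfn2-/-. DESeq2 called 0 against WT and 1 in each test against a single loss. Its shares of all genes were 7.33%, 14.8% and 1.97% against WT, and 9.17% and 13.8% against Mfn1-/- and Mfn2-/-. The pyruvate and lactate carrier Slc16a1 stood at 34.3, 49.5 and 45.6 CPM in Mfn1&2-/- pools, 66.9, 53.7 and 57.5 CPM in Mfn2-/- pools, 47.2, 46.1 and 45.2 CPM in Mfn1-/- pools and 43.0, 47.9 and 51.7 CPM in WT pools. The Mfn2-/- pools lay above all others, with a log2 fold change over WT of 0.32 ± 0.15 (edgeR adjusted p = 0.185) and, for Mfn1&2-/- over Mfn2-/-, of -0.46 ± 0.15 (adjusted p = 0.0618). Slc16a10, which carries aromatic amino acids, was the highest of the family at 17.9 CPM per kb in WT. It stood at 127, 136 and 145 CPM in Mfn1&2-/- pools, 162, 129.7 and 138 CPM in Mfn2-/- pools, 97.5, 111 and 109 CPM in Mfn1-/- pools and 128, 125 and 141 CPM in WT pools. The Mfn1-/- pools were the lowest, 0.31 below WT on the log2 scale without passing the test (edgeR adjusted p = 0.237). The carriers Slc16a3 and Slc16a7 are not analysed here.

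Among 29 amino acid and peptide symbols, 2 rose and 1 fell in Mfn2-/- against WT (10.3%, against 11.4% of all genes). In Mfn1&2-/- against WT 0 rose and 1 fell (3.45%, against 4.21% of all genes). Both shares were near those of the table. Slc7a2, which carries arginine, lysine and ornithine, stood at 75.1, 47.9 and 56.7 CPM in Mfn1&2-/- pools, 101, 101 and 239 CPM in Mfn2-/- pools, 159.7, 138 and 175 CPM in Mfn1-/- pools and 171, 230.4 and 197 CPM in WT pools. The 3 Mfn1&2-/- pools were the lowest of the 12. Slc7a2 fell 3.33-fold against WT (-1.74 ± 0.27, edgeR adjusted p = 0.00167), 2.63-fold against Mfn1-/- (adjusted p = 0.00621) and 2.46-fold against Mfn2-/- oocytes (adjusted p = 0.0067), and all 3 calls held without each library. In the Mfn2-/- group 1 pool lay above the WT pools and 2 far below.

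Slc38a9, the lysosomal sensor that reports arginine to the mTOR complex, stood at 27.9, 43.8 and 46.2 CPM in Mfn1&2-/- pools, 37.6, 42.7 and 44.0 CPM in Mfn2-/- pools, 21.7, 27.8 and 23.2 CPM in Mfn1-/- pools and 21.2, 29.3 and 25.5 CPM in WT pools. Mfn2-/- pools lay above WT pools and Mfn1&2-/- pools above Mfn1-/- pools. It rose 1.64-fold in Mfn2-/- (edgeR adjusted p = 0.0281) and 1.62-fold in Mfn1&2-/- over Mfn1-/- (adjusted p = 0.0482). The first call was lost without Mfn2-/- replicate 2 or 3 or WT replicate 1 or 3, and the other without 10 of the 12 libraries, with Mfn1&2-/- replicate 1 and WT replicate 1 the exceptions, and also with library size alone or only the groups compared. Slc6a7, a proline transporter best known in brain, rose 1.48-fold in Mfn2-/- over WT (edgeR adjusted p = 0.0209), a call lost without Mfn2-/- replicate 2 or 3 or WT replicate 3. It was 1.68-fold lower in Mfn1&2-/- than in Mfn2-/- (edgeR adjusted p = 0.00487, held without each library).

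Slc38a1, a sodium-coupled glutamine transporter, stood at 0, 0.498 and 0.736 CPM in Mfn2-/- pools, against 0.799, 3.29 and 11.3 CPM in WT pools. It fell by 3.62 on the log2 scale (edgeR adjusted p = 0.0235). The highest value was in WT replicate 3, at 5.52 times the mean of the other WT pools, and without that library the adjusted p was 0.16. That library also had the highest granulosa marker sum, and the part of this in the result was not tested. Losses occurred as well without Mfn2-/- replicate 1 or 2.

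Further amino acid carriers moved in the comparisons between knockout groups. Slc6a15 stood at 66.5, 83.5 and 74.3 CPM in Mfn1&2-/- pools and 26.3, 45.5 and 43.1 CPM in Mfn1-/- pools, with no overlap, and rose 1.95-fold (edgeR adjusted p = 0.00926, held without each library). Slc15a2, which takes up short peptides, fell 1.83-fold in Mfn1&2-/- against Mfn2-/- (edgeR adjusted p = 0.0317), a call lost without any one Mfn1&2-/- library and without Mfn2-/- replicate 2 or 3. The glycine transporter Slc6a9 stood at 262, 307 and 307 CPM in Mfn1&2-/- pools, 257, 226 and 254 CPM in Mfn2-/- pools, 240.2, 236 and 234 CPM in Mfn1-/- pools and 237, 251 and 243 CPM in WT pools. Mfn1&2-/- pools lay above all others, but the difference from WT of 0.26 ± 0.09 on the log2 scale did not pass (edgeR adjusted p = 0.11).

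Slc6a6, Slc7a5, Slc3a2, Slc7a6 and Slc7a8 were not called in any comparison by edgeR. DESeq2 called Slc6a6 in Mfn1&2-/- and Mfn2-/- against WT and Slc7a5 in Mfn1&2-/- against Mfn2-/-. The taurine transporter Slc6a6 stood lower than WT by -0.51 ± 0.16 in Mfn1&2-/- (edgeR adjusted p = 0.0842), -0.44 ± 0.16 in Mfn2-/- (adjusted p = 0.0847) and -0.33 ± 0.16 in Mfn1-/- (adjusted p = 0.392). For Slc7a5, the leucine carrier that pairs with Slc3a2, the same differences were 0.19 ± 0.13, -0.20 ± 0.13 and -0.02 ± 0.13. For Slc3a2 they were 0.09 ± 0.12, 0.02 ± 0.12 and 0.15 ± 0.12, and for the related Slc7a6, at 0.442 CPM per kb in WT, -0.86 ± 0.67, -0.41 ± 0.66 and -0.04 ± 0.66. Slc7a8, another light chain, had no count in 2 Mfn1&2-/- pools and 1.58 CPM in the other, against 4.15, 12.9 and 8.10 CPM in WT pools, which did not pass (edgeR adjusted p = 0.0733). Slc1a5, Slc38a2 and Slc38a3 are not analysed here.

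The inorganic ion class, the largest with 37 symbols, had 2 higher and 5 lower (18.9%) in Mfn2-/- against WT, where 11.4% of all genes were called. Of the 5 lower, Slc4a1ap and Slc9a3r2 encode no carrier. The class had, in Mfn1&2-/- against WT, 2 higher and 2 lower (10.8%), against 4.21% of all genes. Both magnesium carriers of the table rose. Slc41a1, which extrudes magnesium in exchange for sodium, stood at 47.7, 42.2 and 44.1 CPM in Mfn1&2-/- pools, 38.8, 31.1 and 39.3 CPM in Mfn2-/- pools, 22.5, 19.8 and 17.5 CPM in Mfn1-/- pools and 24.0, 18.9 and 21.0 CPM in WT pools. The 6 pools without mitofusin 2 lay above the 6 pools with it. Slc41a1 was 2.10-fold higher in Mfn1&2-/- than in WT (1.07 ± 0.16, edgeR adjusted p = 0.00141), 1.71-fold higher in Mfn2-/- than in WT (0.77 ± 0.16, adjusted p = 0.00678) and 2.24-fold higher in Mfn1&2-/- than in Mfn1-/- (1.16 ± 0.16, adjusted p = 0.00052). Each of these calls held without every single library and in each of the other settings.

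Slc41a2 stood at 135, 147 and 104 CPM in Mfn1&2-/- pools, 129, 101 and 102 CPM in Mfn2-/- pools, 94.1, 64.0 and 75.8 CPM in Mfn1-/- pools and 66.05, 76.6 and 81.0 CPM in WT pools. Here too the 6 pools without mitofusin 2 were the higher ones. It rose 1.73-fold in Mfn1&2-/- (edgeR adjusted p = 0.0111) and 1.48-fold in Mfn2-/- (adjusted p = 0.0313) over WT, and 1.65-fold in Mfn1&2-/- over Mfn1-/- (adjusted p = 0.0152). The Mfn1&2-/- calls were lost without replicate 2 of that group, the call against Mfn1-/- also without Mfn1-/- replicate 2, and the Mfn2-/- call without Mfn2-/- replicate 1 or 3 or any one WT library. The promoter windows printed above differ between these genes, with 5 GC boxes in Slc41a1 and 0 in Slc41a2.

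Slc4a3 (chromosome 1, 75546266 to 75562172), which exchanges chloride for bicarbonate, was at or near 0 where mitofusin 2 was missing. It stood at 0, 0.263 and 0 CPM in Mfn1&2-/- pools, 0, 0 and 0 CPM in Mfn2-/- pools, 0.376, 1.69 and 1.08 CPM in Mfn1-/- pools and 2.08, 5.23 and 3.67 CPM in WT pools. The Mfn2-/- libraries together held 0 counts and the WT libraries 132, so the level was at least 50.8-fold lower with 3 counts over the group in place of 0 (edgeR adjusted p = 0.00278, held without each library). In Mfn1&2-/- it fell by 5.12 on the log2 scale against WT (edgeR adjusted p = 0.0146), a call lost without Mfn1&2-/- replicate 3 or WT replicate 2. At 0.426 CPM per kb in WT, Slc4a3 was among the low transcripts.

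Slc8a1, the sodium-calcium exchanger of the plasma membrane, stood at 0.505, 0.263 and 0.303 CPM in Mfn1&2-/- pools, 0.333, 0.332 and 0.0669 CPM in Mfn2-/- pools, 0.376, 2.13 and 1.67 CPM in Mfn1-/- pools and 3.03, 1.43 and 6.18 CPM in WT pools. The WT pools lay above both groups without mitofusin 2. It fell 14.2-fold in Mfn2-/- (edgeR adjusted p = 0.0103) and 9.83-fold in Mfn1&2-/- (adjusted p = 0.0344). Its highest value was again in WT replicate 3, and without that library neither call passed, with an adjusted p of 0.0512 for Mfn2-/-. Whether granulosa RNA had a part in this was not tested. The Mfn1&2-/- call was also lost without Mfn1&2-/- replicate 2 or 3 or WT replicate 1.

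Other ion genes changed less steeply. Slc26a9, a chloride channel and exchanger of epithelia, fell 1.57-fold in Mfn2-/- against WT (edgeR adjusted p = 0.0337), lost without Mfn2-/- replicate 2 or 3 or WT replicate 1 or 2. The scaffold gene Slc9a3r2 stood at 0, 0.415 and 0.268 CPM in Mfn2-/- pools, against 4.71, 1.69 and 2.51 CPM in WT pools, and fell 13.0-fold (edgeR adjusted p = 0.0137, held without each library). Its Mfn1&2-/- level was 9.77-fold the Mfn2-/- level (edgeR adjusted p = 0.0266, lost without Mfn1&2-/- replicate 1 or 2 or Mfn2-/- replicate 1 or 3). Slc12a2, the sodium, potassium and chloride cotransporter that restores cell volume, stood at 72.0, 97.2 and 86.4 CPM in Mfn1&2-/- pools, against 150.3, 146 and 116 CPM in Mfn1-/- pools. It was 1.61-fold lower there (edgeR adjusted p = 0.00946, held without each library), and the difference between Mfn1-/- and WT of 0.48 ± 0.14 did not pass (adjusted p = 0.167). Slc9b1, a sodium-proton exchanger known from sperm, was 2.15-fold higher in Mfn1&2-/- than in Mfn1-/- (edgeR adjusted p = 0.0268). Slc24a3, a potassium-dependent calcium exchanger, was 1.30-fold higher in Mfn1&2-/- than in Mfn2-/- (edgeR adjusted p = 0.0496). The Slc9b1 call was lost without Mfn1&2-/- replicate 1 or 3 or Mfn1-/- replicate 1 or 3, and the Slc24a3 call without 9 of the 12 libraries and with either other scaling or only the groups compared.

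Of the bicarbonate carriers, the chloride-bicarbonate exchanger Slc4a2 and the sodium-bicarbonate cotransporter Slc4a7 were not called by edgeR or DESeq2, and neither reached an unadjusted p of 0.05 in any comparison. Slc4a2 differed from WT by 0.13 ± 0.15 in Mfn1&2-/-, -0.12 ± 0.15 in Mfn2-/- and -0.01 ± 0.15 in Mfn1-/- on the log2 scale. For Slc4a7 these differences were -0.12 ± 0.12, 0.01 ± 0.12 and -0.03 ± 0.12 in the same order of groups.

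Of 20 zinc and metal symbols, 1 rose and 1 fell in Mfn2-/- against WT (10%, against 11.4% of all genes). In Mfn1&2-/- against WT 0 rose and 2 fell (10%, against 4.21% of all genes). Slc30a1, whose promoter is printed above, stood at 61.5, 58.3 and 62.2 CPM in Mfn1&2-/- pools, 70.6, 86.6 and 88.4 CPM in Mfn2-/- pools, 82.4, 74.9 and 68.3 CPM in Mfn1-/- pools and 51.9, 49.8 and 56.6 CPM in WT pools. Both single losses lay above WT in every pool, and the pools with both losses lay in between. It rose 1.55-fold in Mfn2-/- over WT (0.63 ± 0.12, edgeR adjusted p = 0.00429, held without each library), and was 1.35-fold lower in Mfn1&2-/- than in Mfn2-/- (adjusted p = 0.0354, lost without any one Mfn1&2-/- library and without Mfn2-/- replicate 2 or 3). Antisense transcript 1700034H15Rik shares 8.92% of its exon bases.

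Slc30a2, which loads zinc into vesicles, stood at 1.35, 1.38 and 2.80 CPM in Mfn1&2-/- pools, 2.33, 4.15 and 8.30 CPM in Mfn2-/- pools, 20.0, 10.2 and 11.6 CPM in Mfn1-/- pools and 10.1, 17.4 and 13.3 CPM in WT pools. The 6 pools without mitofusin 2 were the lowest of the 12. It fell 7.33-fold in Mfn1&2-/- against WT (-2.87 ± 0.47, edgeR adjusted p = 0.0022) and 7.52-fold against Mfn1-/- (adjusted p = 0.00162), and both calls held without each library. In Mfn2-/- against WT it fell 2.75-fold (edgeR adjusted p = 0.0394), a call lost without Mfn2-/- replicate 1 or 2, without WT replicate 2 or 3, and with library size alone.

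Slc39a8, an importer of zinc, manganese and cadmium, stood at 0.0842, 2.37 and 0.151 CPM in Mfn1&2-/- pools, 13.7, 3.90 and 4.82 CPM in Mfn2-/- pools, 12.5, 14.5 and 53.0 CPM in Mfn1-/- pools and 15.2, 19.0 and 30.8 CPM in WT pools. The Mfn1&2-/- pools were below all others and also spread widely. It fell 23.2-fold against WT (-4.54 ± 0.83, edgeR adjusted p = 0.00543) and 28.5-fold against Mfn1-/- (adjusted p = 0.0031), both held without each library, and 8.07-fold against Mfn2-/- (adjusted p = 0.0292). The last was lost without Mfn1&2-/- replicate 1 or 3 or Mfn2-/- replicate 1, and with only the groups compared. The Mfn2-/- pools, all below the WT pools, were not called against WT by edgeR. Slc39a11, an importer of the same family, was 3.93-fold lower in Mfn1&2-/- than in Mfn2-/- (edgeR adjusted p = 0.0446), a call lost without 9 of the 12 libraries and with only the groups compared. The importer Slc39a10 stood at 469 to 599 CPM in Mfn1&2-/- pools and 470.2 to 544 CPM in WT pools, a difference of 0.09 ± 0.11.

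**Figure D3:**
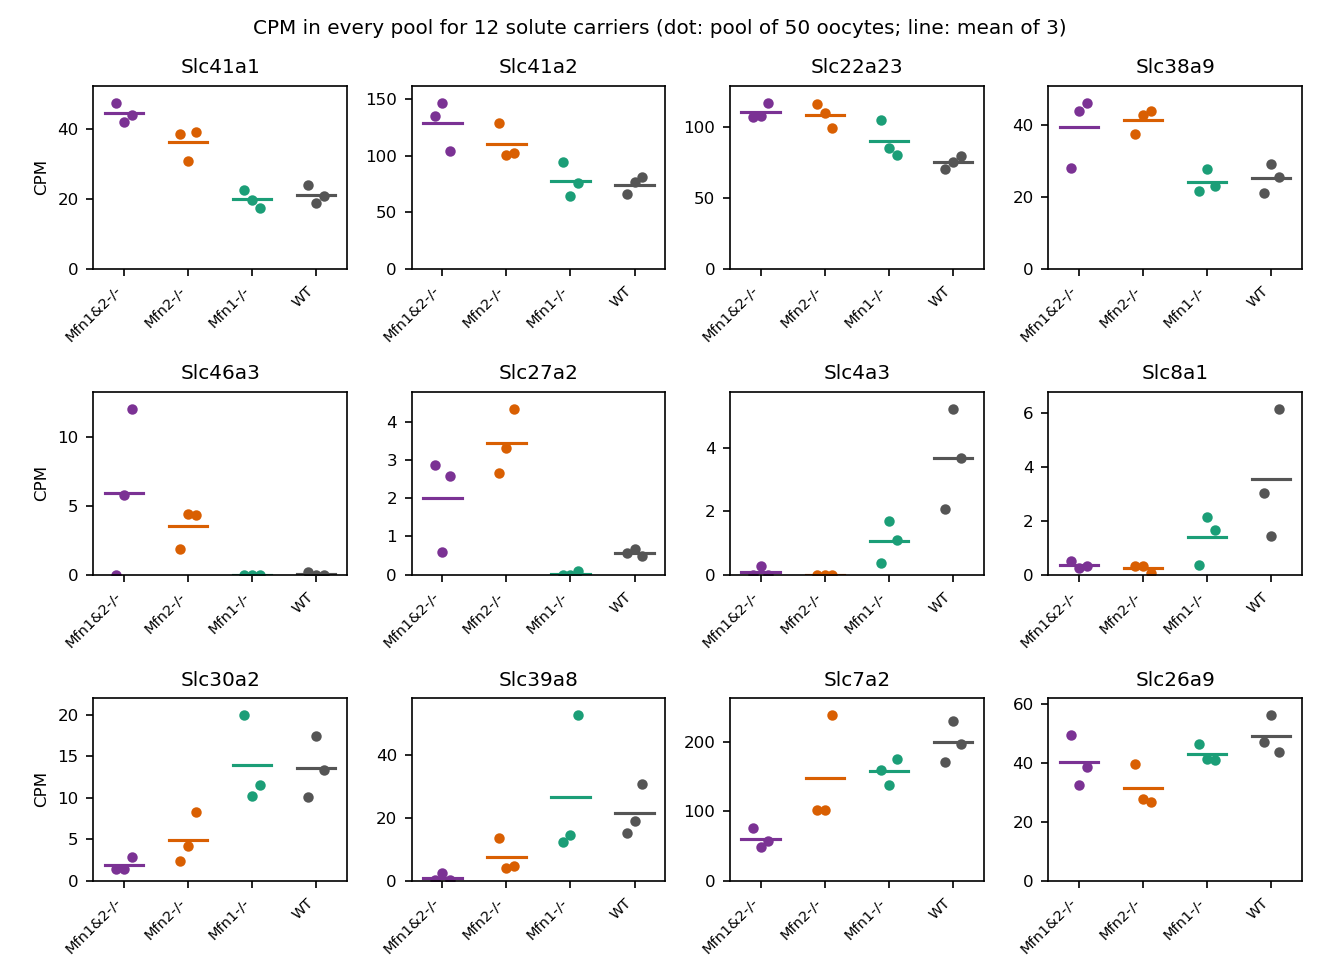
CPM (vertical axes, each from 0) of 12 solute carriers in every pool of 50 oocytes, with Mfn1&2-/-, Mfn2-/-, Mfn1-/- and WT from left to right; dots are pools and lines are means of 3. Slc41a1 and Slc41a2 are higher, and Slc30a2 lower, in the 6 pools without mitofusin 2 than in the 6 others, while Slc39a8 and Slc7a2 are lowest in the Mfn1&2-/- pools.

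Of 24 symbols in the nucleotide class 3 rose and 0 fell in Mfn2-/- against WT (12.5%, against 11.4% of all genes), with a class median of 0.30 on the log2 scale. All 3 were among the 20 Slc35 symbols, of which 14 had a positive and 6 a negative fold change. Among all 158 symbols 99 were positive and 59 negative, with a median of 0.11. Among all genes 5863 were positive and 5522 negative, with a median of 0.01. In Mfn1&2-/- against Mfn2-/- 0 rose and 4 fell (16.7%, against 10.2% of all genes). In Mfn1&2-/- against WT edgeR called 0, against 4.21% of all genes. There 4 had an unadjusted p below 0.05 (16.7%, against 18.6% of all genes), and DESeq2 called 1, against 7.33% of all genes. Slc35a3, the Golgi carrier of UDP-N-acetylglucosamine, stood at 14.4, 20.7 and 17.3 CPM in Mfn1&2-/- pools, 32.9, 33.5 and 38.0 CPM in Mfn2-/- pools, 26.8, 25.6 and 17.2 CPM in Mfn1-/- pools and 19.2, 16.9 and 20.2 CPM in WT pools. All Mfn2-/- pools lay above all others. It was 1.86-fold higher in Mfn2-/- than in WT (0.89 ± 0.20, edgeR adjusted p = 0.00918) and 1.99-fold lower in Mfn1&2-/- than in Mfn2-/- (adjusted p = 0.00537), both held without each library.

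Slc35b4, a carrier of UDP-xylose and UDP-N-acetylglucosamine, stood at 130.5, 109 and 124 CPM in Mfn1&2-/- pools, 212, 183 and 176 CPM in Mfn2-/- pools, 101, 119 and 113 CPM in Mfn1-/- pools and 141, 132 and 87.4 CPM in WT pools. Again the Mfn2-/- pools were the highest, 1.59-fold over WT (edgeR adjusted p = 0.00949, held without each library), and Mfn1&2-/- was 1.57-fold lower than Mfn2-/- (adjusted p = 0.012, lost without Mfn1&2-/- replicate 2 or Mfn2-/- replicate 1). Its exons share 10.01% of their bases with the antisense transcript Gm13856. Slc35f6, an orphan member, rose 1.56-fold in Mfn2-/- (edgeR adjusted p = 0.0111, lost without Mfn2-/- replicate 3) and was 1.44-fold lower in Mfn1&2-/- than in Mfn2-/- (adjusted p = 0.0329, lost without any one library of either group). The orphan Slc35e4 was 1.69-fold lower in Mfn1&2-/- than in Mfn2-/- (edgeR adjusted p = 0.0294, lost without any one library of either group). Outside this family, the lysosomal nucleoside carrier Slc29a3 stood at 9.01, 12.2 and 11.96 CPM in Mfn1&2-/- pools, against 4.66, 2.38 and 4.66 CPM in Mfn1-/- pools, and rose 2.85-fold (edgeR adjusted p = 0.0175, lost without Mfn1-/- replicate 2 or Mfn1&2-/- replicate 2 or 3).

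Of 26 carriers of other substrates, 4 rose and 0 fell in Mfn2-/- against WT (15.4%, against 11.4% of all genes). In Mfn1&2-/- against WT 2 rose and 0 fell (7.69%, against 4.21% of all genes). Slc22a23, an orphan of the organic ion family, stood at 108, 108 and 117 CPM in Mfn1&2-/- pools, 116, 110.4 and 99.7 CPM in Mfn2-/- pools, 105, 85.1 and 80.3 CPM in Mfn1-/- pools and 70.3, 75.7 and 79.8 CPM in WT pools. All 9 knockout pools lay above the WT pools. It rose 1.47-fold in Mfn1&2-/- (edgeR adjusted p = 0.013, lost without Mfn1&2-/- replicate 3) and 1.44-fold in Mfn2-/- (adjusted p = 0.00912, held without each library). Its relative Slc22a3, which carries organic cations, rose 2.17-fold in Mfn2-/- (edgeR adjusted p = 0.046), a call lost without 7 of the 12 libraries and with only the groups compared.

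Slc46a3, a lysosomal carrier, was at or near 0 where mitofusin 2 was present. It stood at 0, 5.79 and 12.04 CPM in Mfn1&2-/- pools, 1.86, 4.40 and 4.35 CPM in Mfn2-/- pools, 0, 0 and 0 CPM in Mfn1-/- pools and 0.160, 0 and 0 CPM in WT pools. Counts pooled over a group were 247 in Mfn1&2-/-, 146 in Mfn2-/-, 0 in Mfn1-/- and 2 in WT, and 1 Mfn1&2-/- pool had no count. The level was 63.2-fold higher in Mfn2-/- than in WT (95% counting interval 17.2 to 526.6; edgeR adjusted p = 0.0276) and 111.4-fold higher in Mfn1&2-/- than in WT (30.5 to 925.0; adjusted p = 0.0272). Against Mfn1-/- the Mfn1&2-/- level was at least 84.3-fold higher, with 3 counts over the group in place of 0 (edgeR adjusted p = 0.0141). Intervals and bounds cover counting error only. The Mfn2-/- and Mfn1&2-/- calls against WT were lost without any one WT library and without replicate 2 or 3 of the knockout group, and the call against Mfn1-/- without Mfn1-/- replicate 1 or 2. DESeq2 did not call the Mfn2-/- difference.

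Slc27a2, an acyl-CoA synthetase for very long fatty acids, stood at 2.86, 0.592 and 2.57 CPM in Mfn1&2-/- pools, 2.66, 3.32 and 4.35 CPM in Mfn2-/- pools, 0, 0 and 0.0833 CPM in Mfn1-/- pools and 0.559, 0.675 and 0.501 CPM in WT pools. Levels were low in all groups, and the Mfn1-/- libraries together held 1 count. It rose 5.88-fold in Mfn2-/- over WT (edgeR adjusted p = 0.0295, lost without Mfn2-/- replicate 2 or 3 or any one WT library). Over Mfn1-/- the Mfn1&2-/- level was 78.8-fold higher (95% counting interval 13.7 to 3153; edgeR adjusted p = 0.00345, held without each library). Slc27a6, a fatty acid carrier of heart, had 2 counts over the Mfn1-/- group and was 30.2-fold higher in Mfn1&2-/- (7.998 to 255.2; edgeR adjusted p = 0.0261, lost without Mfn1&2-/- replicate 2 or Mfn1-/- replicate 2 or 3).

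The tests of mitofusin 2 loss with and without mitofusin 1 compare groups that share no library. Both took their spread from 1 fit to all 12 libraries, so their calls are not fully independent. Both tests called Slc41a1, Slc41a2, Slc38a9, Slc27a2 and Slc46a3 higher and Slc30a2 lower. These 6 carriers are 30% of the 20 called in Mfn2-/- against WT and 40% of the 15 called in Mfn1&2-/- against Mfn1-/-. Over all genes 180 were called in both, 167 of them in the same direction, which is 12.9% of 1297 and 27.4% of 610. Of the 20 carriers called in Mfn2-/- against WT, 14 (70%) had the same sign in Mfn1&2-/- against Mfn1-/-, and of the 1297 genes called 792 (61.1%) did. For mitofusin 1 loss, the test against WT called 0 carriers by edgeR and the test against Mfn2-/- 16, so no carrier was shared.

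**Figure D4:**
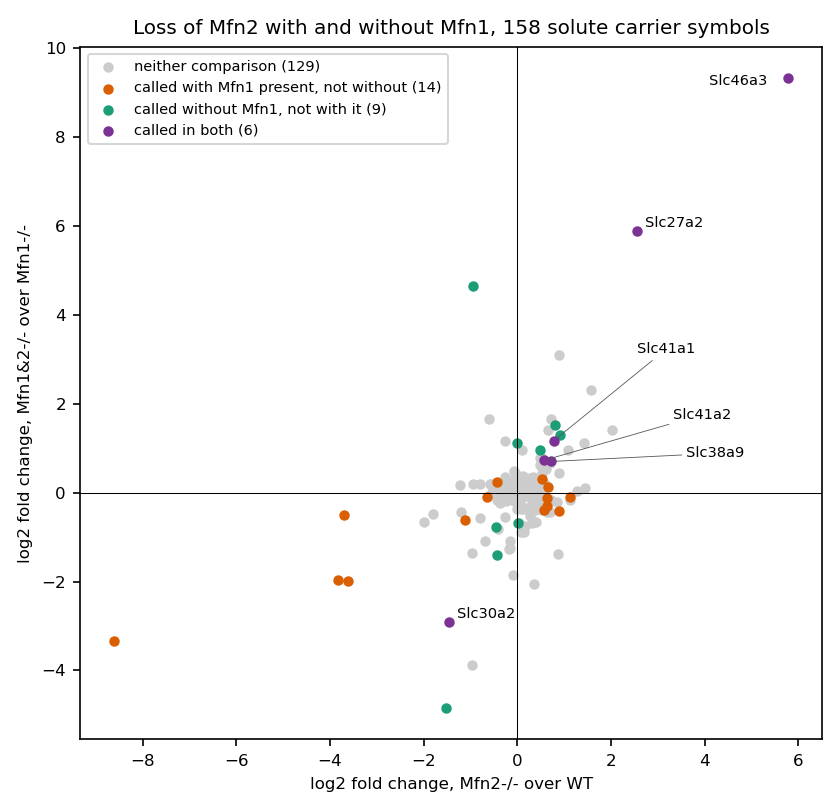
Log2 fold change of each of the 158 symbols for Mfn2-/- over WT (horizontal) and for Mfn1&2-/- over Mfn1-/- (vertical), which share no library. Named purple dots are the 6 carriers called in both, 14 orange dots passed in the first test and not in the other, and 9 green dots the reverse.

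Whether the effect of losing mitofusin 2 depended on mitofusin 1 was tested as an interaction, (Mfn1&2-/- minus Mfn1-/-) minus (Mfn2-/- minus WT) on the log2 scale. It was called for 7 symbols, 3 positive and 4 negative, or 4.43%, against 4.13% of all genes (2.92% positive, 1.2% negative). With library size alone 2 were positive and 5 negative, and the median over all genes was then -0.12 in place of -0.01. In that setting 3.93% of all genes were called. The 4 negative ones were Slc30a1 (-0.94 ± 0.17, edgeR adjusted p = 0.0103), Slc35a3 (-1.30 ± 0.28, adjusted p = 0.0209), Slc6a7 (-0.95 ± 0.21, adjusted p = 0.0216) and Slc35f6 (-0.77 ± 0.21, adjusted p = 0.0496). Each was called higher in Mfn2-/- than in WT and was not called in Mfn1&2-/- against WT. All 4 also had a positive fold change in Mfn1-/- over WT, which edgeR did not call. For Slc30a1 the Mfn1&2-/- pools, at 58.3 to 62.2 CPM, lay above the WT pools at 49.8 to 56.6 CPM. Slc6a7 stood at 59.8, 57.1 and 52.7 CPM in Mfn1&2-/- pools, 83.6, 103 and 97.9 CPM in Mfn2-/- pools, 85.4, 72.1 and 63.2 CPM in Mfn1-/- pools and 71.1, 68.7 and 51.7 CPM in WT pools.

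The positive ones were Slc4a1ap (0.66 ± 0.14, edgeR adjusted p = 0.0206), Slc7a6os (0.61 ± 0.16, adjusted p = 0.0471) and Slc27a6 (5.58 ± 1.39, adjusted p = 0.0393). Of these, Slc4a1ap and Slc7a6os encode no carrier. Slc4a1ap, for a nuclear protein, stood at 255, 245 and 229 CPM in Mfn1&2-/- pools, 158, 149 and 161 CPM in Mfn2-/- pools, 188, 208 and 227 CPM in Mfn1-/- pools and 197, 237 and 197 CPM in WT pools. Mfn2-/- pools were below all others and Mfn1&2-/- pools above the WT pools with an exception of 1. It fell 1.35-fold in Mfn2-/- against WT (edgeR adjusted p = 0.012, lost without Mfn2-/- replicate 2 or WT replicate 2) and was 1.56-fold higher in Mfn1&2-/- than in Mfn2-/- (adjusted p = 0.00122, held without each library). Slc7a6os stood at 161, 131 and 138 CPM in Mfn1&2-/- pools and 102, 82.4 and 97.5 CPM in Mfn2-/- pools, and was 1.53-fold higher there (edgeR adjusted p = 0.00395, held without each library). The Slc30a1 interaction alone of the 7 held without each library. Interaction calls numbered 1 without Mfn1-/- replicate 1, 2 and 3 without Mfn2-/- replicate 2 or 3, and 4 without WT replicate 2. Over all genes 1.48%, 1.41%, 1.85% and 2.2% were called in these fits, in the same order, in place of 4.13%.

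**Figure D5:**
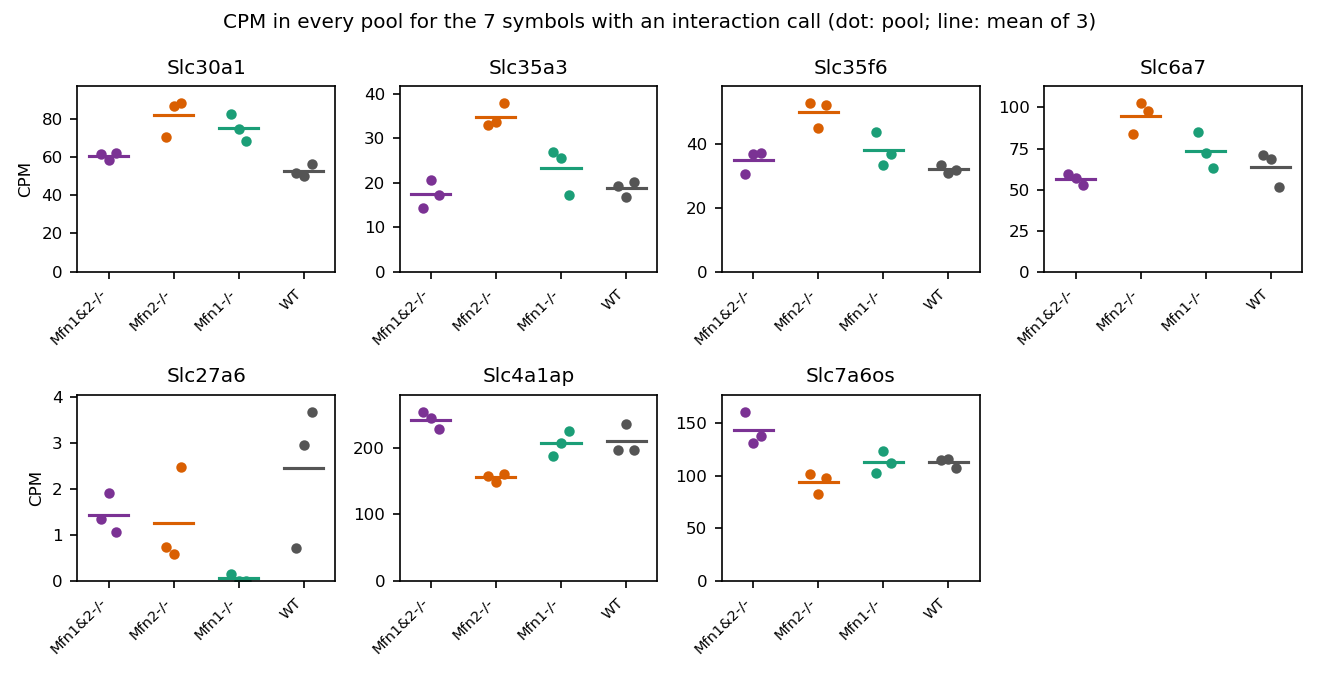
CPM (vertical axes, each from 0) in every pool for the 7 symbols with an interaction call, with Mfn1&2-/-, Mfn2-/-, Mfn1-/- and WT from left to right; dots are pools and lines means of 3. Slc30a1, Slc35a3, Slc35f6 and Slc6a7 have higher means in Mfn2-/- than in WT pools, and lower means in Mfn1&2-/- than in Mfn2-/- pools. Slc4a1ap and Slc7a6os show the opposite order. For Slc30a1 the Mfn1&2-/- and Mfn1-/- pools also lie above the WT pools.

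Other genes of membrane transport were read from lists of carrier partners and drivers (18 in the table), organic anion carriers (6), ABC transporters (29), proton pump subunits (15) and aquaporins (1). In Mfn2-/- against WT, partners had 2 higher and 0 lower (11.1%), ABC transporters 2 and 1 (10.3%), proton pump subunits 1 and 0 (6.67%), and the other lists 0 and 0, none above the 11.4% of all genes. In Mfn1&2-/- against WT, partners had 1 higher and 1 lower (11.1%), organic anion carriers 0 and 1 (16.7%), ABC transporters 1 and 0 (3.45%), and proton pump subunits 1 and 0 (6.67%), against 4.21% of all genes. In Mfn1-/- against WT, ABC transporters had 0 higher and 1 lower and the other lists 0 and 0, against 0.228% of all genes. Abcb11, the bile salt export pump, stood at 6.82, 17.0 and 15.2 CPM in Mfn1&2-/- pools, 11.1, 12.5 and 18.4 CPM in Mfn2-/- pools, 0.902, 0.815 and 3.41 CPM in Mfn1-/- pools and 0.719, 0.928 and 0.752 CPM in WT pools. The 6 pools without mitofusin 2 lay above the 6 others, and log2 fold changes were 4.01 ± 0.54 in Mfn1&2-/- (edgeR adjusted p = 0.000516) and 4.12 ± 0.54 in Mfn2-/- (adjusted p = 0.000252) over WT. Nedd4l, a ubiquitin ligase that removes sodium channels and carriers from the surface, stood at 56.1, 47.3 and 34.4 CPM in Mfn1&2-/- pools, against 157, 126 and 90.9 CPM in WT pools (-1.44 ± 0.21, edgeR adjusted p = 0.000944). Its level was 63.3, 84.8 and 96.2 CPM in Mfn2-/- pools and 82.3, 103 and 99.4 CPM in Mfn1-/- pools, not called against WT. Txnip, which draws glucose transporters off the surface, stood at 951, 779 and 843 CPM in Mfn2-/- pools, against 659, 572 and 537 CPM in WT pools (0.54 ± 0.10, edgeR adjusted p = 0.00315). The Mfn1&2-/- pools, also without mitofusin 2, had 600, 516 and 520 CPM of Txnip, and the Mfn1-/- pools 502, 502 and 533 CPM. Of these lists 11 genes were called in at least 1 comparison with WT, and 6 without Mfn1&2-/- replicate 2, without Mfn1&2-/- replicate 3 or without Mfn2-/- replicate 3, and 7 without WT replicate 2.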

How the data were processed

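Total RNA of 12 pools of oocytes was made into SMARTer stranded total RNA libraries after removal of ribosomal RNA, per the labels' protocols. Per the submitters' processing notes, FastQC 0.11.7, STAR 2.7.0a, the mm10 genome and edgeR were used; the sources used here state neither the annotation and strand setting of the counting nor how multi-mapping reads were treated. The authors deposited raw counts per gene. The deposited signal table holds CPM, which equalled TMM-scaled CPM of the counts within a relative 5.07e-15 and served only for that check.

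Groups came from the labels; 1 pool whose genotype is spelled "Mn2-/-" was placed in Mfn2-/- by its description. Raw counts of all 11385 genes went through TMM scaling and the quasi-likelihood model of edgeR 4.0.16 under R 4.3.3 (1 mean per group, all 12 libraries, 8 residual degrees of freedom); filterByExpr kept every gene. P-values were adjusted by Benjamini-Hochberg over all genes, and an adjusted p below 0.05 was called. Each standard error was taken as the size of the log2 fold change over the root of its F statistic. The fit was tested on simulated data. Exon lengths, positions and overlaps are from GENCODE vM21. Alternatives were DESeq2 1.42.0 (Wald test), its size factors in edgeR, library size alone, no filter, a filter of at least 5 CPM in 3 or more libraries, fits to only the groups compared, a block for the replicate number, and each library left out in turn.

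Named genes are all called carriers, or the 5 with the smallest p where 0 were called, the 10 highest in WT per kb, and a short list of well-known glucose, amino acid, monocarboxylate, ion and zinc carriers. The members, lists and tests were chosen with earlier results of these data known. Genes shown from the other transport lists were picked after their values were seen. The precision of a value is set by 3 pools per group and, for low genes, by a floor of 3 counts. Of that short list, 1 carrier is not reported here.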

Additional observations from a re-analysis of the deposited data

Results flagged for a closer look

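For 7 symbols the effect of losing mitofusin 2 differed with the presence of mitofusin 1 by the interaction test of edgeR. On the log2 scale the effect without mitofusin 1 minus the effect with it was -0.94 for Slc30a1, -1.30 for Slc35a3, -0.95 for Slc6a7 and -0.77 for Slc35f6. It was 0.66 for Slc4a1ap, 0.61 for Slc7a6os and 5.58 for Slc27a6. Slc27a6 rests on 2 counts in the Mfn1-/- group. All 4 groups enter each of these values.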

How the results depend on the processing

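No named value reversed its sign past the test in any setting. The count of called carriers moved with the DESeq2 Wald test to 3 (Mfn1-/- against WT), 14 (Mfn1&2-/- against WT) and 25 (Mfn1&2-/- against Mfn1-/-), in place of 0, 9 and 15. DESeq2 also called more of all genes there, 1.97%, 7.33% and 9.17%, in place of 0.228%, 4.21% and 5.36%. For the other transport lists, whose alternatives were chosen after seeing the data, the 11 genes called against WT became 17 with DESeq2, 7 with only the groups compared and 7 with the replicate block. With each library left out in turn, called carriers ran from 10 to 23 in Mfn2-/- against WT, from 5 to 14 in Mfn1&2-/- against WT, from 0 to 1 in Mfn1-/- against WT, from 8 to 16 in Mfn1&2-/- against Mfn1-/-, from 7 to 17 in Mfn1&2-/- against Mfn2-/- and from 1 to 7 for the interaction. Shares of all genes called moved as well. In the same order they ran from 6.22% to 12.6%, 2.48% to 4.83%, 0.0264% to 0.448%, 2.59% to 6.05%, 5.01% to 11.4% and 1.41% to 4.08%. The other transport lists ran from 6 to 16 calls. The causes were not tested.

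Of 18 same-numbered pairs of pools, 4 correlated above 0.1 (range -0.17 to 0.20), against 5 of 36 pairs with different numbers (range -0.27 to 0.21). These few pairs do not settle whether the numbers pair the pools, and the main fit was not paired. The descriptions carry other numbers, of unstated meaning, and of the 6 pairs between groups that share one, 1 correlated above 0.1 (range -0.09 to 0.20). No fit was blocked on those numbers. The replicate block gave 21 calls for Mfn2-/- and 8 for Mfn1&2-/- against WT, 0 for Mfn1-/- against WT, 17 and 12 for Mfn1&2-/- against Mfn1-/- and Mfn2-/-, and 4 interaction calls in place of 7. Over all genes 9.5%, 3.6%, 0.184%, 4.79%, 8.48% and 2.42% were called with the block, in the same order. In the main fit these shares were 11.4%, 4.21%, 0.228%, 5.36%, 10.2% and 4.13%.

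Carriers near or under 3 counts, such as Slc46a3, Slc27a2, Slc27a6 and Slc4a3, are limited by depth. Requiring 5 CPM in 3 libraries kept 117 of the 158 symbols, with 14 calls in Mfn2-/- and 6 in Mfn1&2-/- against WT. Of all genes kept, 13.4% and 4.96% were then called, in place of 11.4% and 4.21%. Exons shared with other genes, and counting whose strand setting is not known, leave the levels of such carriers uncertain.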
